A study of Mus musculus with 39 samples.

Results

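Fertilized 2-cell embryos were compared with cumulus cells, the somatic cells whose nuclei are transferred in mouse cloning, to describe the transcripts that separate an embryo at the start of its own transcription from the donor cell type. The comparison held all arrays of in vitro fertilized embryos (IVF, n = 6) and all arrays of cumulus cells (Cumulus, n = 4), 10 of the 39 arrays in the series. Each IVF array measured a pool of 10 untreated embryos at the 2-cell stage, 24 h after insemination. Each Cumulus array measured 500 untreated cells, dispersed from the cumulus-oocyte complexes of superovulated females 15 h after hCG. Metaphase II oocytes (OC, n = 7, 10 untreated oocytes per array) and cumulus cloned 2-cell embryos injected with Spi-C mRNA at 1.0 or 0.1 mg/ml (Spi-C NT, n = 4 each and 8 together, 10 embryos per array, 24 h of culture) were used as references. Untreated cloned embryos, TSA(–) (n = 8), and cloned embryos exposed to 5 nM trichostatin A for 8 h, TSA(+) (n = 6), entered the fit only to estimate the spread. All samples were of the (B6xDBA/2)F1 genotype. Every array held pooled embryos or cells, and nothing in the labels says that pools came from separate matings or females, so p-values measure the spread between pools, which may be technical.

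A mouse 2-cell embryo carries transcripts from 2 sources: RNA stored in the growing oocyte, much of which is degraded after fertilization, and RNA made by the embryo when its genome is activated. A cumulus cell is a granulosa-lineage cell that surrounds the oocyte, feeds it through gap junctions and, after the ovulatory surge, secretes a hyaluronan-rich matrix and makes progesterone. A transferred nucleus therefore enters a cytoplasm that already holds the stored part, whereas the activated part has to be transcribed.

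Levels are log2 intensities relative to the 75th percentile of their array, and a difference is IVF minus Cumulus in log2 units. A probe was called when its adjusted p in limma was under 0.01, and "at least 8-fold" refers to called probes with a difference of 3 or more in either direction. The 75th percentile itself was 1029 to 1406 intensity units on the IVF arrays and 814 to 1125 on the Cumulus arrays, and 70.2 to 76.7% and 58.9 to 66.3% of probes were well above background, respectively. On the OC arrays it was 279 to 528, with 49.1 to 60.3% of probes well above background. On the Spi-C NT arrays it was 2140 to 2707, with 69.7 to 75.2%. Levels in OC are therefore relative to a lower reference intensity than levels in IVF. Arrays correlated at 0.955 to 0.964 within IVF, 0.955 to 0.968 within Cumulus and 0.674 to 0.701 between the groups over all probes. The IVF arrays were read on a G2505B scanner with Feature Extraction software and lay on 5 slides, whereas all 4 Cumulus arrays lay on 1 slide of their own and were read on a G2505C scanner with a later version of the software. The Cumulus arrays were scanned on 1 day, on which no IVF array was scanned. Scanner, software, slide, scan day and cell type therefore cannot be told apart in this comparison. The Spi-C NT arrays were read with the Cumulus scanner model and software, but on 2 other slides and another day. Their differences from the same Cumulus arrays are given for the main lists after the results. IVF replicate 1 stood apart from the others in one respect: over the 4156 probes at least 8-fold lower in IVF its median level was -3.60, against -4.23 to -4.07 on the other 5 arrays, and 34 of these probes were at least 8-fold above every other IVF array, against 6 to 12 for the others.

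Most of the measured transcriptome differed. Of 36321 probes tested, 12411 (34.2%) were higher and 9625 (26.5%) lower in IVF, and 6160 (17.0%) were at least 8-fold higher and 4156 (11.4%) at least 8-fold lower. On other scales the split moved: 56.3% of calls were higher in IVF on the 75th percentile scale, 38.4% after median centring of the arrays, 48.4% after quantile normalization and 47.6% after normexp background correction and quantile normalization. The median difference of all probes moved with it, from 0.294 to -0.589, -0.0807 and -0.0281. Small differences called in either direction, and the counts of lists made of small differences, therefore rest on the scale. Without IVF replicate 1 the at least 8-fold counts were 6180 and 4185, of which 6060 and 4072 were among those with all arrays. With 1 probe for each of 15699 genes, 2636 genes (16.8%) were at least 8-fold higher and 2029 (12.9%) at least 8-fold lower, among 5457 (34.8%) called higher and 4744 (30.2%) called lower, and these shares are the background for the gene lists that follow. The medians of lists are given relative to the median of all genes, 0.175.

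**Figure D1:**
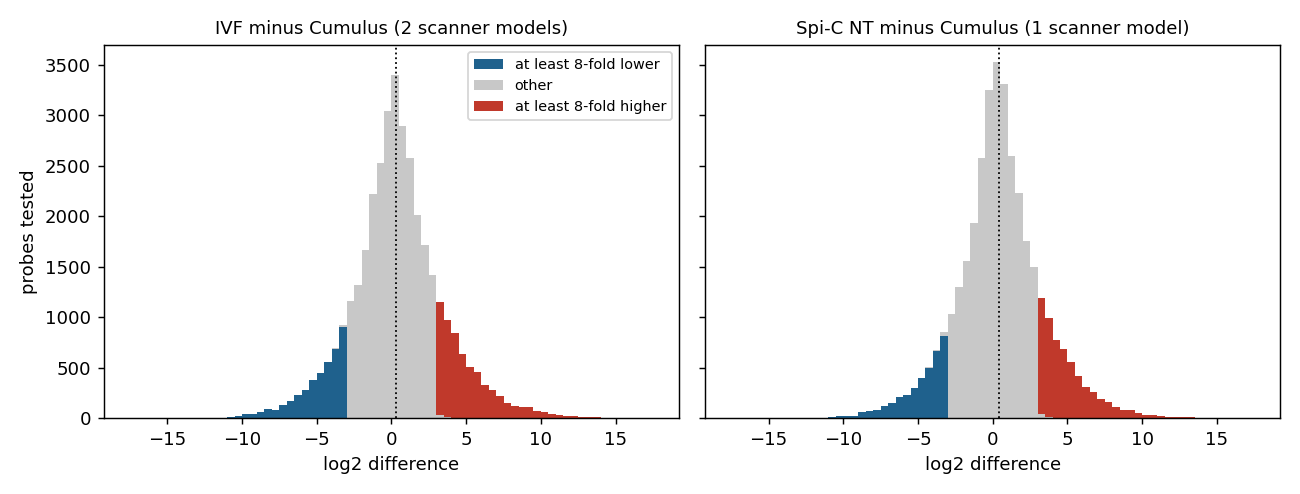
Histograms of the log2 difference of 36321 probes for IVF minus Cumulus and for Spi-C NT minus Cumulus, which share the 4 Cumulus arrays (x axis, log2 difference; y axis, number of probes). Both distributions are wide, with medians of 0.294 and 0.391, and both reach further on the side higher in embryos.

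The 2 sets differed in where they were found in the oocyte. Probes at least 8-fold higher in IVF had median levels of -2.16 in OC, -0.93 in IVF and -6.71 in Cumulus, and 58.6% of them were well above background on all 7 OC arrays, against 49.0% of all probes tested. Probes at least 8-fold lower had median levels of -4.60 in OC, -4.23 in IVF and 0.94 in Cumulus, and 39.4% were well above background on all OC arrays. The low side was below measurement for many embryo probes, 2251 (36.5%) of which were not well above background on any Cumulus array. Their fold changes are given as lower bounds, computed against the dimmest measurable signal of each Cumulus array, so a bound is smaller than the measured difference. The reverse held for 446 (10.7%) of the lower probes. In pooled samples, fewer cells with a transcript and less RNA per cell cannot be told apart.

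Both labels were checked against defining markers. Of 9 cumulus and granulosa markers tested, 7 (Fshr, Cyp11a1, Inha, Inhba, Has2, Ptx3 and Tnfaip6) were at least 8-fold lower in IVF, while Foxl2 (difference -0.43, adjusted p = 0.0752) and Amhr2 (0.40, adjusted p = 0.293) were not called. All 9 were well above background on every Cumulus array. All 5 markers of the 2-cell stage tested (Zfp352, Tcstv1, Tcstv3, Spz1 and Obox6) were at least 8-fold higher in IVF, and 4 of them were well above background on no Cumulus array. All 7 oocyte markers tested were at least 8-fold higher in IVF. Some of these were also measurable in Cumulus: Gdf9, an oocyte-secreted growth factor, stood at 0.01, 0.53, 0.90 and -0.11 and was well above background on all 4 arrays, whereas Bmp15, its partner, stood between -8.98 and -8.39 and was well above background on none.

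The probes highest in IVF over Cumulus were oocyte transcripts. The 10 largest differences belonged to Oog3, E330034G19Rik, Omt2b, Oosp1, Trim61, Bmp15, Obox5, Nlrp4f, Gdap1 and Nlrp14, with measured differences of 15.76 to 16.74, or at least 11801-fold to at least 23509-fold. Every one of the 10 was well above background on all IVF, OC and Spi-C NT arrays and on no Cumulus array. Oog3, a PRAME-family oogenesin, ranged from 7.87 to 8.19 in IVF with a median of 8.04, and was -9.05, -8.78, -8.25 and -8.72 in Cumulus. The groups lay far apart, the difference was 16.74 ± 0.16 (SE, adjusted p = 1.36e-34), or at least 23509-fold, and its mean was 9.89 in OC and 7.04 in Spi-C NT. Omt2b, an oocyte maturation transcript, was at 7.86 to 8.17 in IVF (median 8.04) and at -8.92, -8.78, -8.28 and -8.64 in Cumulus, which is at least 23297-fold. Oosp1, a secreted oocyte protein, was at least 22927-fold higher by one probe and at least 25883-fold by another.

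The 10 probes with the largest differences on the somatic side were led by steroid and signalling genes. Akr1c18, the enzyme that inactivates progesterone, was at 7.12, 7.34, 7.64 and 7.16 in Cumulus and at -9.57 to 0.93 in IVF (median -9.11). The IVF maximum was replicate 1, the only IVF array on which it was well above background, and the difference was -14.82 ± 1.55 (SE, adjusted p = 1.11e-09). Without that array it was -16.51, measured against IVF arrays that were all not well above background. Hsd3b1, which makes progesterone from pregnenolone, was at 7.53, 7.68, 8.20 and 7.69 in Cumulus and at -6.68 to -5.91 in IVF (median -6.33), a difference of -14.12 ± 0.72 (SE, adjusted p = 1.03e-16). Inha, the inhibin alpha subunit, was at 5.63, 5.90, 6.02 and 5.71 in Cumulus and at -9.46 to -6.09 in IVF (median -7.97), a difference of -13.75 ± 0.77 (SE, adjusted p = 8.54e-16), and was well above background on 3 of the 6 IVF arrays. Pik3c2g, Mgp, Adgrv1, Epdr1, Lox, Hao2 and Runx1 completed the set. The first 5 of these had differences of -14.03 to -12.13 and were well above background on 1, 2, 2, 2 and 4 IVF arrays, respectively. Hao2 and Runx1 were well above background on no IVF array and were at least 1348-fold and at least 999-fold lower. By the rule that chose them, the 4 Cumulus arrays of each of the 10 were above all measured IVF arrays. The measured IVF arrays were 5 for Adgrv1 and 6 for the others. Of all probes tested, 58.56% had no overlap between IVF and Cumulus.

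Promoters of 2 genes at the top of each side and of 2 landmarks of the cumulus cell, Ptgs2 and Vim, are shown for their CpG dinucleotides, the sites of DNA methylation, and their core motifs. The sequences are 300 bases each, from 250 bases before to 50 bases after the annotated start, from RefSeq on GRCm38.p6, and capitals mark matches on either strand to the box TATAAA, to the box CCAAT and to the box GGGCGG, the motifs of those searched that these 6 held. An annotated start can differ from the start in use in these cells.
Oog3, chr4:144162602-144162901, reverse strand: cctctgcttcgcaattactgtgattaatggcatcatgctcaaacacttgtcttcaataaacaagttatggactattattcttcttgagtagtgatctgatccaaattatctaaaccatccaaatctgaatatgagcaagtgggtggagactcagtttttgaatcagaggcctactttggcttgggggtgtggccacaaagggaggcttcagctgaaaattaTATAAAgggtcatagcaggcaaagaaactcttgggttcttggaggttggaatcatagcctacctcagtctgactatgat
Omt2b, chr9:78327780-78328079, forward strand: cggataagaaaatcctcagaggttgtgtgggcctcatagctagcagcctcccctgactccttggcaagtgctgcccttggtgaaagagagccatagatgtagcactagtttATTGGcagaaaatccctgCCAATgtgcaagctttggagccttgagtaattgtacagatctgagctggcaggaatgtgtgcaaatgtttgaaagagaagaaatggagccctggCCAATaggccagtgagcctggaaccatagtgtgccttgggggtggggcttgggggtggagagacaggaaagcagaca
Akr1c18, chr13:4150597-4150896, reverse strand: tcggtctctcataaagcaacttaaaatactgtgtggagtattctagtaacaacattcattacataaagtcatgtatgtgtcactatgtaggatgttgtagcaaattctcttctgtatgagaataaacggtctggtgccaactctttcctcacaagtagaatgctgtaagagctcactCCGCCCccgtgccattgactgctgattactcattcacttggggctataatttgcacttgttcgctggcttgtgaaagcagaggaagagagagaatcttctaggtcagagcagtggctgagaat
Hsd3b1, chr3:98859745-98860044, reverse strand: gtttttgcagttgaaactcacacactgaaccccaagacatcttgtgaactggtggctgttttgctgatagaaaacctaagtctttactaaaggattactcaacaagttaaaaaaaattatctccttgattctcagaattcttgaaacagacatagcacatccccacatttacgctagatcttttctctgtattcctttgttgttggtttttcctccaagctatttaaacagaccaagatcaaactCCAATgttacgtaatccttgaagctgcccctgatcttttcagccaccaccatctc
Ptgs2, chr1:150099781-150100080, forward strand: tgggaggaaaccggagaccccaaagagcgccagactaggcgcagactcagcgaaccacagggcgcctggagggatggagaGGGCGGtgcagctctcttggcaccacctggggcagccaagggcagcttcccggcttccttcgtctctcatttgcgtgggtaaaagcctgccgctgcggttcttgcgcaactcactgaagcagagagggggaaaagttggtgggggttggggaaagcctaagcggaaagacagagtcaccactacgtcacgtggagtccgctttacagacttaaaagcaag
Vim, chr2:13574061-13574360, forward strand: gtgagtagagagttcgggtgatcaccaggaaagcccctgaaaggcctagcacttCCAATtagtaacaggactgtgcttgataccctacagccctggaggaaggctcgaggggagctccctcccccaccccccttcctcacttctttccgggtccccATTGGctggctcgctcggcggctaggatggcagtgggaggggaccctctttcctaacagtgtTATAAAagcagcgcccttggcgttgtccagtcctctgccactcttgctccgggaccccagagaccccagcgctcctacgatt
Oog3 and Omt2b held 1 CpG each, Hsd3b1 2, Akr1c18 5, Vim 11 and Ptgs2 16. Promoters were matched for 12514 of 15699 genes tested (15724 promoters), for 2067 of the genes at least 8-fold higher in IVF (2630) and for 1567 of those at least 8-fold lower (1970). The median number of CpG dinucleotides was 11 on the embryo side (quartiles 4 and 24) and 16 on the cumulus side (quartiles 7 and 25), against 16 for all genes (quartiles 6 and 26). Promoters with fewer than 5 CpG made up 26.7% on the embryo side, 14.8% on the cumulus side and 20.3% of all. Of the motifs searched, each on both strands, the GC box GGGCGG was present in 45.8, 57.1 and 52.9% of these promoters, respectively, TATAAA in 12.2, 10.3 and 10.6%, and CCAAT in 39.7, 33.0 and 37.9%. The cyclic AMP response element TGACGTCA was found in 2.17, 2.69 and 2.47%, and CAAGGTCA, the orphan nuclear receptor half-site, in 0.913, 2.03 and 1.16%. These are letter matches in a fixed window, and promoters of gene families with near-identical members are not independent.

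Maternal-effect genes and the subcortical maternal complex, which the oocyte stores for the first divisions, made up the list with the largest shift. Of 35 tested, 33 were higher and 2 lower, 31 of them at least 8-fold higher (background 16.8%), and the list median was 9.33 above that of all genes. Array medians of the list were 6.27 to 6.86 in OC, 3.12 to 3.70 in IVF and -7.94 to -6.94 in Cumulus, so that IVF lay between the oocyte and the somatic cell and did not overlap either. Nlrp5, a core component of the complex, was 2.11 to 2.55 in IVF (median 2.25) and -7.30, -8.31, -8.36 and -8.80 in Cumulus, at least 432-fold. Zar1, an oocyte RNA-binding protein, was at least 434-fold higher, with a mean of 8.73 in OC and a median of 2.26 in IVF. Dppa3, which protects DNA methylation of the maternal genome, was 10.37 ± 0.26 higher and was measurable on all 4 Cumulus arrays, between -4.50 and -2.28. The 2 members lower in IVF, Smarca4 (-1.09 ± 0.19), a chromatin remodelling ATPase, and Trim28 (-0.74 ± 0.20), a co-repressor, are general chromatin proteins.

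Genes of the zona pellucida and oocyte-secreted factors were higher in 9 of 10, all 9 at least 8-fold, with a median of 7.24 above all genes. Zp2, a zona protein, was 1.96 to 2.16 in IVF (median 2.04) and -8.91, -4.11, -7.52 and -8.78 in Cumulus, where 1 of the 4 arrays was well above background. Its difference was 9.38 ± 0.49. The oocyte kinase genes Wee2 and Aurkc, both active in meiosis, were at least 5290-fold higher and 8.20 ± 0.15 higher, respectively.

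Genes activated at the 2-cell stage were also shifted towards IVF. Of 22 tested, 19 were higher, none lower and 3 not called, and 17 were at least 8-fold higher, with a median of 8.06 above all genes. Array medians of the list were -1.51 to -0.70 in OC, 3.1 to 3.35 in IVF and -6.43 to -5.35 in Cumulus, so that here IVF was above the oocyte. Zfp352, a zinc finger gene, ranged from 4.70 to 5.35 in IVF (median 5.21) and was -7.27, -8.39, -6.45 and -6.96 in Cumulus, a difference of at least 3146-fold, with -3.81 ± 0.49 (SD, n = 7) in OC and 4.35 ± 0.44 (SD, n = 8) in Spi-C NT. Of Tcstv1 and Tcstv3, neighbours in a cluster on chromosome 13, the former was 13.27 ± 0.31 higher, with 1 of 4 Cumulus arrays well above background, and the latter at least 4401-fold higher, but both were already at 4.11 and 3.55 in OC. Obox3, an oocyte homeobox gene, was at least 7559-fold higher and also present in OC (3.93). Members of these families are close copies, so that a probe may read more than one gene. Spic, the factor whose mRNA was injected into Spi-C NT embryos, was 3.51 to 4.23 in IVF (median 4.03) and -5.38, -7.33, -2.62 and -5.96 in Cumulus, a difference of 9.26 ± 0.53 (adjusted p = 1.65e-15) with 3 of 4 Cumulus arrays well above background, and its mean was 1.53 in Spi-C NT.

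**Figure D2:**
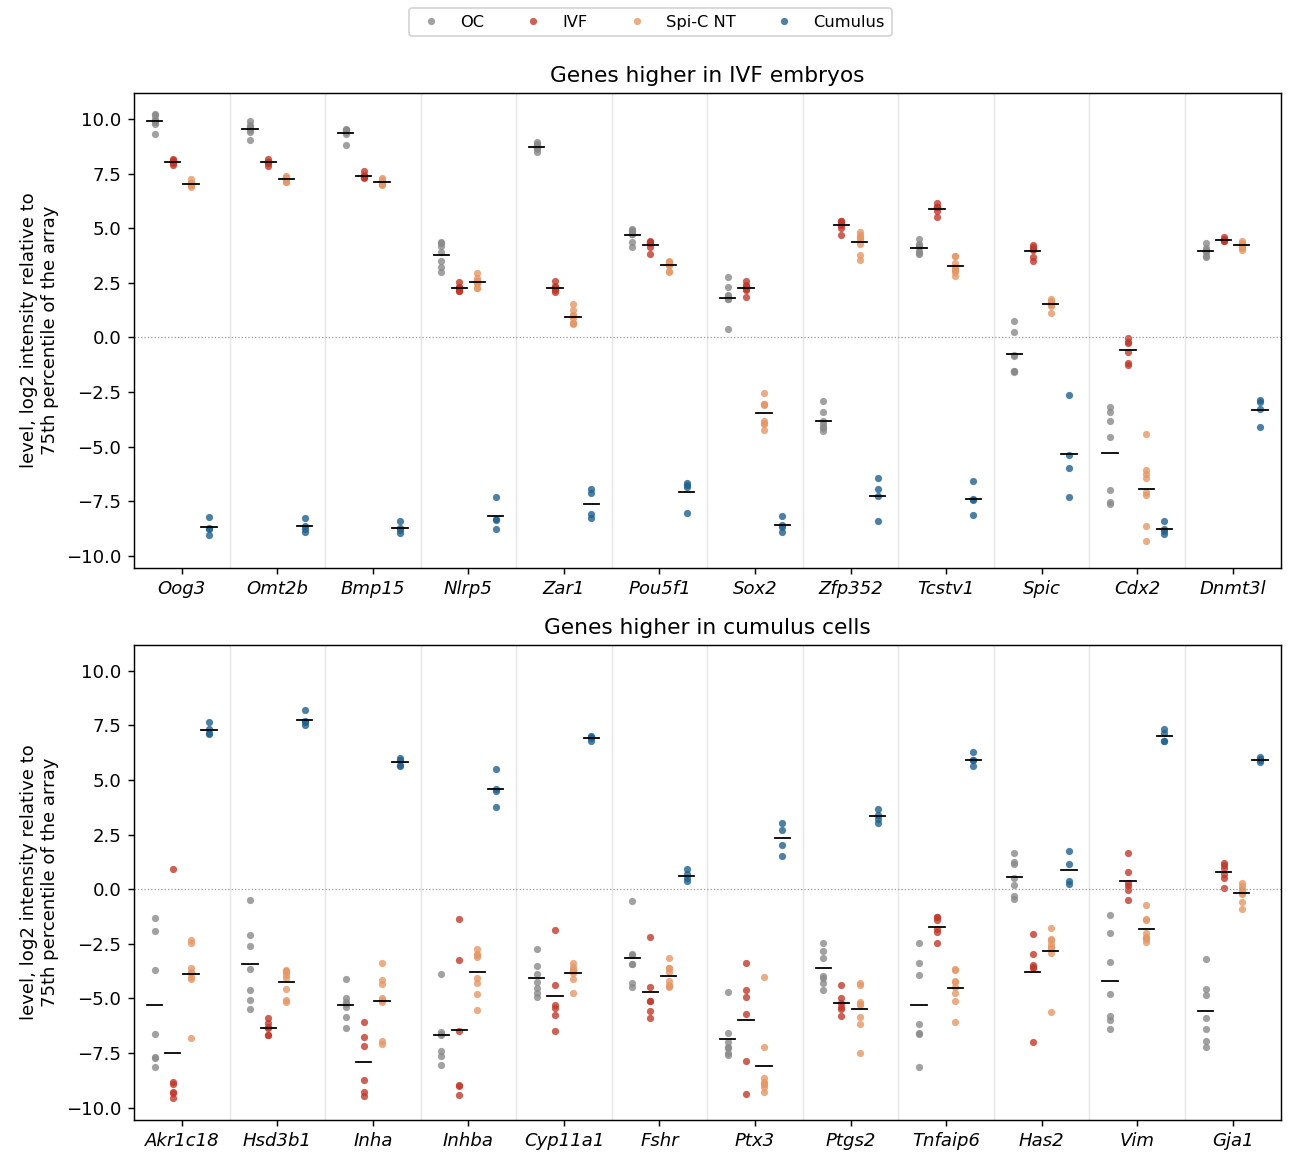
Levels (y axis, log2, with 0 at the 75th percentile) of 12 genes higher in IVF (top) and 12 higher in Cumulus (bottom), with 1 point per array in OC, IVF, Spi-C NT and Cumulus and a bar at each group mean. The genes were picked for display, and the landmarks Cyp19a1, Dnmt1 and Kdm4d, whose IVF and Cumulus points overlap, are not among them. IVF and Cumulus points do not overlap for the genes shown, against 58.56% of all probes tested. Sox2 and Cdx2 have means of -3.46 and -6.94 in Spi-C NT, below every IVF point.

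Pluripotency regulators were higher in 20 of 25, 17 of them at least 8-fold, and lower in 2, with a median of 6.21 above all genes. Pou5f1, the central pluripotency factor, was 3.83 to 4.42 in IVF (median 4.33) and -8.03, -6.75, -6.87 and -6.67 in Cumulus. No array overlapped, the difference was 11.31 ± 0.22 (adjusted p = 3.69e-27), or at least 1685-fold, and OC held it at 4.68. Sall4, a zinc finger partner of Pou5f1, was at least 851-fold higher and stood at 7.35 in OC. Zfp42, a marker of embryonic stem cells, was at least 1761-fold higher in IVF and stood at only -2.20 ± 2.09 (SD, n = 7) in OC. Sox2 was 1.85 to 2.56 in IVF (median 2.29) and -8.93, -8.68, -8.20 and -8.60 in Cumulus, at least 427-fold. Klf2, a Kruppel-like zinc finger factor, went the other way, with -3.34 ± 0.26, as did Tdgf1, a Nodal co-receptor, with -1.58 ± 0.41.

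Of 21 preimplantation lineage factors, 14 were higher, 13 of them at least 8-fold, and 3 were lower, each at least 8-fold, with a median of 4.74 above all genes. Trophectoderm regulators were among the higher: Tfap2c at least 1409-fold, Eomes at least 150-fold and Cdx2 at least 59.3-fold, and Gata2 by 10.06 ± 0.74, with 1 of 4 Cumulus arrays well above background. Eomes was 0.42 to 1.08 in IVF (median 0.82) and -8.01, -8.36, -7.25 and -8.06 in Cumulus, with -5.88 in OC. Krt8, a simple epithelial keratin, and Gata6, an endoderm and granulosa factor, were lower (-4.40 ± 0.28 and -3.83 ± 0.22).

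Chromatin enzymes did not shift as a block. Among DNA methylation and demethylation enzymes 5 of 16 were higher and 6 lower. Dnmt3l, the oocyte cofactor of de novo methylation, was 7.78 ± 0.18 higher, with 4.42 to 4.62 in IVF and -4.12 to -2.87 in Cumulus. Uhrf1, which guides Dnmt1 to replicated DNA, was 4.32 ± 0.15 higher and Dnmt3b, a de novo enzyme, 2.43 ± 0.20 higher, whereas Dnmt1 was 0.73 ± 0.20 higher on this scale and -0.15 after median centring. Tdg, a glycosylase of active demethylation, was lower (-6.21 ± 0.39).

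The H3K9 enzymes, which write or remove heterochromatin methylation, had 3 of 14 higher and 5 lower. Suv39h2, a heterochromatin methyltransferase, was 5.31 ± 0.26 higher and Kdm4a, a demethylase, 4.17 ± 0.72 higher, with 2 of 4 Cumulus arrays well above background, while the euchromatic methyltransferases Ehmt1 and Ehmt2 were -2.36 ± 0.28 and -2.31 ± 0.18. Kdm4d, another H3K9 demethylase, was not called (0.18 ± 0.61, adjusted p = 0.808), with -1.21 to -0.38 in IVF (median -0.72) and -1.68, -0.48, -0.35 and -1.18 in Cumulus. Histone acetyltransferases and deacetylases divided 7 higher and 8 lower of 20, with Crebbp at least 25.2-fold higher and Kat2b lower (-5.30 ± 0.35), both acetyltransferases. The medians of these 2 lists relative to all genes were -0.327 and -0.105, and both turned positive after quantile normalization (0.01 and 0.06). Polycomb genes were higher in 11 of 20 and lower in 3, with a median of 1.70 above all genes. The median level of the list was 5.18 in OC and 2.74 in IVF. Among the higher were the methyltransferase Ezh2 (3.33 ± 0.16) and the PRC1 subunits Pcgf1 (4.09 ± 0.27) and Bmi1 (3.66 ± 0.22). Their means were 8.07, 8.55 and 8.51 in OC and 4.50, 5.00 and 6.52 in IVF. Ring1, a PRC1 ligase subunit, was lower (-4.78 ± 0.40).

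Genes for dividing were higher as groups. DNA replication licensing and fork genes were higher in 28 of 36 and lower in 5, 11 of them at least 8-fold higher, with a median of 1.76 above all genes. Cdc6, which loads the MCM helicase, was 1.57 to 1.88 in IVF (median 1.79) and -3.16, -4.49, -5.87 and -3.42 in Cumulus, a difference of 6.00 ± 0.29, and its partner Orc6 and the kinase regulator Dbf4 were 4.18 ± 0.21 and 5.39 ± 0.20 higher. These were at 3.0, 8.15 and 8.63 in OC. Cyclins, CDKs and their inhibitors were higher in 28 of 38 and lower in 6, with Ccne2, a G1/S cyclin, 6.64 ± 0.28 higher and the B-type cyclin Ccnb3 at least 80.7-fold higher. Cdk4 and its inhibitor Cdkn2b were lower (-4.20 ± 0.28 and -3.72 ± 1.00).

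The general transcription and RNA machinery differed less. RNA polymerase II subunits and general factors were higher in 14 of 30 and lower in 7, spliceosome and hnRNP genes in 12 and 14 of 44, and nucleolar genes in 21 and 3 of 43, with at most 3 members of each list at least 8-fold apart in either direction. Their medians were 0.05, -0.431 and 0.366 relative to all genes. Heat shock and chaperone genes, with 9 higher and 14 lower of 30, had none at least 8-fold apart. Hspa1b, an inducible chaperone described at genome activation, was 3.0 ± 0.37 higher, and the constitutive Hspa8 was lower (-2.61 ± 0.17).

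**Figure D3:**
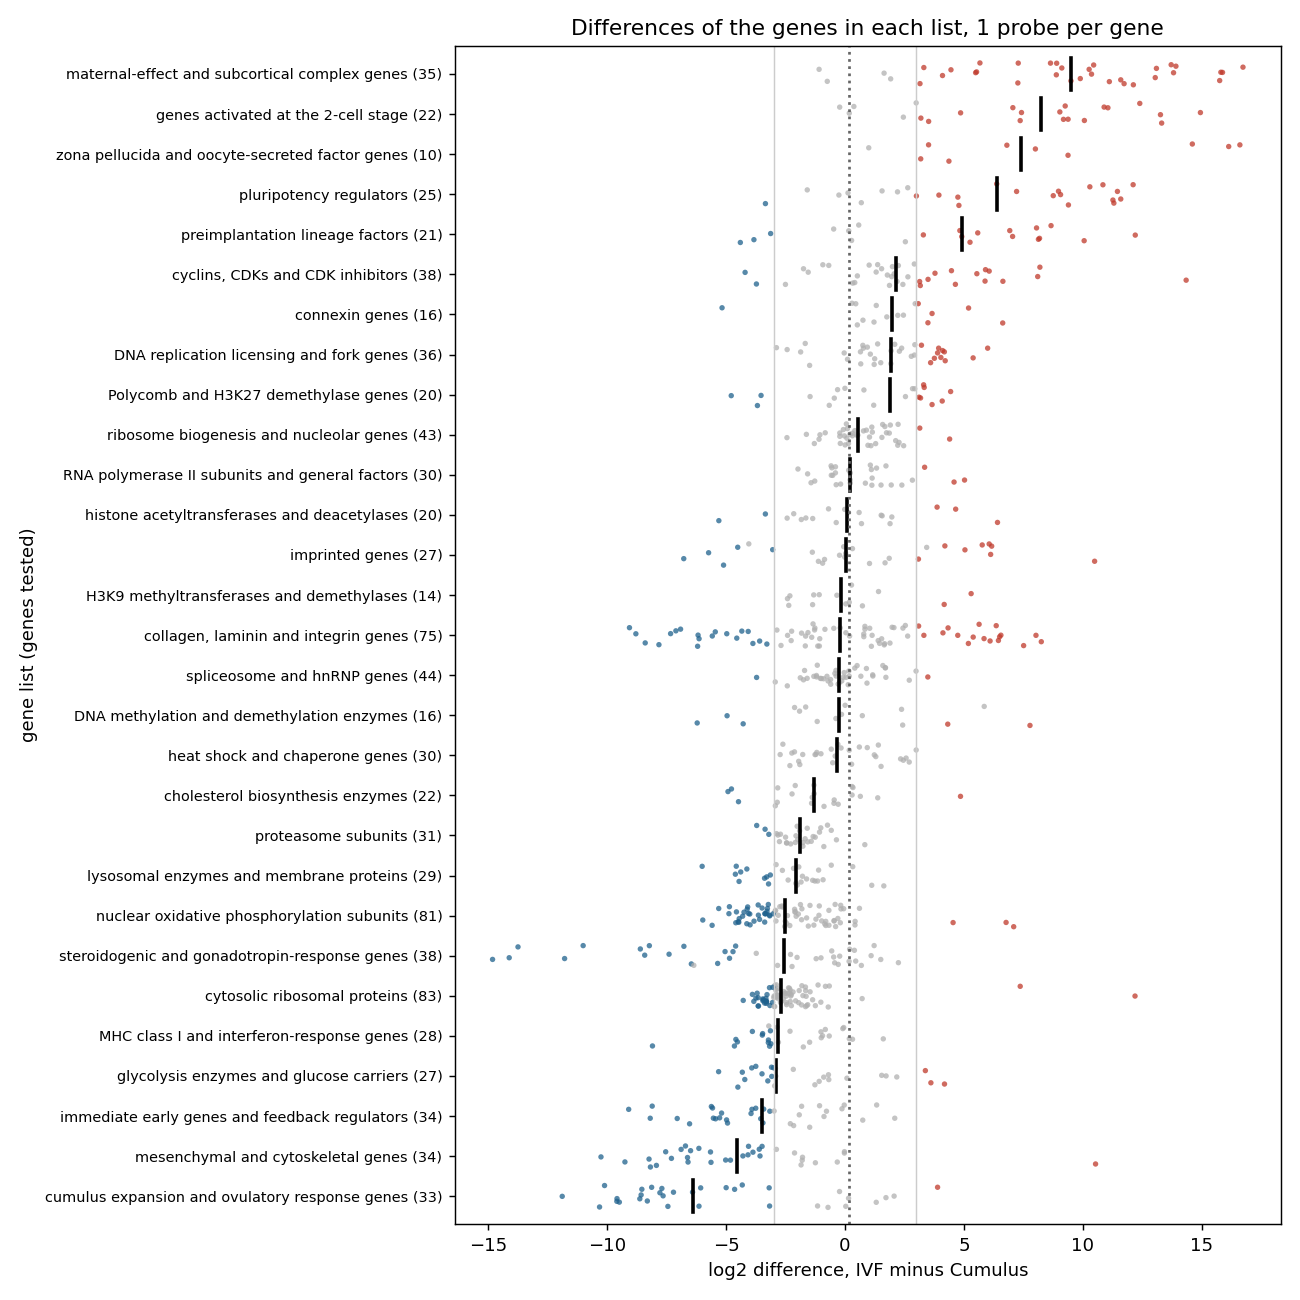
Log2 difference IVF minus Cumulus (x axis) for the members of each gene list (rows), with 1 point per gene, coloured where at least 8-fold apart, and a bar at the list's median. Maternal, oocyte-coat and 2-cell lists lie furthest to the right (medians 9.51, 7.41 and 8.23), and the cumulus expansion, cytoskeletal and immediate early lists furthest to the left (-6.41, -4.55 and -3.50).

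Genes of cumulus expansion and the ovulatory response made up the list with the largest shift towards the somatic side. Of 33 tested, 25 were lower, 24 of them at least 8-fold (background 12.9%), and 2 were higher, with a median of -6.58 relative to all genes. Array medians of the list were 1.12 to 1.31 in Cumulus, -5.70 to -4.80 in IVF and -6.46 to -4.51 in OC, where IVF and OC overlapped. Ptgs2, the inducible prostaglandin synthase, was at 3.05, 3.20, 3.68 and 3.4 in Cumulus and at -5.83 to -4.38 in IVF (median -5.29), a difference of -8.54 ± 0.46 (adjusted p = 4.46e-16). The matrix genes Tnfaip6 and Ptx3, which crosslink hyaluronan, were lower (-7.65 ± 0.78 and -8.31 ± 1.22), the latter with 4 of 6 IVF arrays well above background. Has2, the hyaluronan synthase, was lower (-4.64 ± 0.83, 5 of 6 IVF arrays well above background), stood between 0.23 and 1.74 in Cumulus, and was at 0.58 ± 0.80 (SD, n = 7) in OC. The prostaglandin receptors divided: Ptger2, the receptor of cumulus expansion, was lower (-10.11 ± 0.96, 1 of 6 IVF arrays well above background), while Ptger4 was 3.90 ± 0.36 higher. Runx1, a factor induced by the ovulatory surge, was at least 999-fold lower.

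Steroidogenic and gonadotropin-response genes were lower in 20 of 38, 16 of them at least 8-fold, and higher in 4, with a median of -2.74 relative to all genes. Cyp11a1, which cleaves cholesterol to pregnenolone, was at 6.95, 7.0, 6.91 and 6.80 in Cumulus and at -6.49 to -1.85 in IVF (median -5.38). The difference was -11.79 ± 0.65 (adjusted p = 5.96e-16), 5 of 6 IVF arrays were well above background, and the IVF maximum was again replicate 1. Star, which brings cholesterol into mitochondria, was lower (-6.46 ± 0.46), and the gonadotropin receptors Fshr and Lhcgr differed by -5.35 ± 0.64 and -6.77 ± 0.47, the latter with 1 of 6 IVF arrays well above background. Inhba, the inhibin beta A subunit, was at 5.51, 4.49, 3.77 and 4.58 in Cumulus and at -9.44 to -1.37 in IVF, a difference of -11.01 ± 1.43 with all arrays, of which 3 of 6 in IVF were well above background, and -12.02 without IVF replicate 1. Aromatase, Cyp19a1, was higher in IVF by 1.23 ± 0.37 (adjusted p = 0.004), with 1.52 to 3.33 in IVF, 2.42, 0.19, 0.32 and 1.61 in Cumulus, and 8.11 ± 0.48 (SD, n = 7) in OC. Its groups overlapped, since 2 Cumulus arrays lay within the IVF range. A difference this small rests on the scale, because the median of all probes was 0.294 here and -0.589 after median centring. The oestrogen receptors Esr1 and Esr2 were 2.25 ± 0.46 and 1.51 ± 0.17 higher in IVF. Among the cholesterol biosynthesis enzymes, 12 of 22 were lower and 3 higher, with Fdps lower (-4.77 ± 0.16) and Insig1, a sterol-sensing brake on the pathway, 4.86 ± 0.26 higher.

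Mesenchymal and cytoskeletal genes were lower in 30 of 34, 24 of them at least 8-fold, and higher in 1, with a median of -4.73 relative to all genes. Vim, the mesenchymal intermediate filament, was at 6.77, 7.15, 7.32 and 6.79 in Cumulus and at -0.50 to 1.68 in IVF (median 0.21), a difference of -6.62 ± 0.71 (adjusted p = 1.53e-09). Cav1, of caveolae, Anxa1, a membrane-binding protein, and Sparc, a matrix protein, were lower (-10.26 ± 0.75, -9.25 ± 0.65 and -8.18 ± 0.60), the last -8.64 without IVF replicate 1. The exception was Cnn1, a smooth-muscle calponin, at least 669-fold higher in IVF and at 3.47 in OC. Collagens, laminins and integrins divided, with 24 higher and 32 lower of 75 and 17 and 19 at least 8-fold. Col6a1, Col11a1, Col5a2 and Itga2 were lower (-8.79, -8.4, -7.82 and -9.06), with 1, 5, 3 and 1 of 6 IVF arrays well above background, whereas the basement membrane collagen Col4a3 and the epithelial integrin Itgb6 were at least 56.0-fold and at least 64.3-fold higher.

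Gap junction genes divided by connexin. Gja1, the connexin between cumulus cells, was at 5.92, 5.83, 5.96 and 6.03 in Cumulus and at 0.07 to 1.22 in IVF (median 0.84), a difference of -5.17 ± 0.48 (adjusted p = 1.02e-10). Gja4, the connexin on the oocyte side of the junction, was 3.49 ± 0.23 higher in IVF and at 3.35 in OC. Of 16 connexins tested, 10 were higher and 1, Gja1, was lower, and 11 of the 19 on the array were well above background on no Cumulus array. Gjb5 and Gjb6 were at least 2.73-fold and at least 9.38-fold higher in IVF.

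Immediate early genes and their feedback regulators were lower in 27 of 34, 20 of them at least 8-fold, and higher in 1 (Dusp4, a MAP kinase phosphatase, 2.10 ± 0.36). The median was -3.67 relative to all genes. Nr4a1, an orphan nuclear receptor, was at 6.89, 6.87, 7.25 and 6.83 in Cumulus and at -1.70 to -0.67 in IVF (median -1.31), a difference of -8.19 ± 0.44 (adjusted p = 3.78e-16). The zinc finger gene Egr2 and the AP-1 members Fosl2 and Jun were lower (-8.11 ± 0.59, -7.05 ± 0.43 and -9.10 ± 0.92), Jun with 4 of 6 IVF arrays well above background. Cumulus cells were taken after hormone treatment and enzymatic dispersal, whose part in these levels was not tested.

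Housekeeping lists were among those lower in IVF. Cytosolic ribosomal proteins were lower in 78 of 83, 22 of them at least 8-fold, with a median of -2.85 relative to all genes. Array medians of the list were 5.96 to 7.0 in Cumulus, 3.35 to 3.82 in IVF and 1.12 to 1.85 in OC, 3 ranges without overlap. Rpl5, of the large subunit, was at 7.62, 7.44, 7.61 and 7.74 in Cumulus and at 3.51 to 4.18 in IVF (median 3.71), a difference of -3.83 ± 0.15 (adjusted p = 2.69e-19). The paralogs Rpl39l and Rpl3l went the other way, at least 1074-fold and at least 48.7-fold higher, although Rpl3l was well above background on no OC array. Proteasome subunits were lower in 28 of 31 (median -2.08 relative to all genes), 3 of them at least 8-fold, with Psmb5, a catalytic subunit, lower (-3.71 ± 0.29). Psmd3 was the only subunit higher (0.84 ± 0.17), and was -0.05 after median centring.

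Nuclear genes of oxidative phosphorylation were lower in 63 of 81, 33 of them at least 8-fold, and higher in 3, with a median of -2.71 relative to all genes. Their array medians were 4.13 to 4.90 in Cumulus, 1.34 to 1.60 in IVF and 1.30 to 1.87 in OC. Ndufc2, a complex I subunit, was at 4.03, 4.56, 4.91 and 4.09 in Cumulus and at -2.34 to -0.93 in IVF (median -1.53), a difference of -5.98 ± 0.25 (adjusted p = 1.06e-18). The 3 higher members included Cox6a2 (6.78 ± 0.24) and Cox8c (7.10 ± 0.86), tissue-restricted cytochrome oxidase isoforms, the latter with 1 of 4 Cumulus arrays well above background. Glycolysis enzymes and glucose carriers were lower in 15 of 27 and higher in 6, with Aldoa and the lactate exporter Slc16a3 lower (-4.50 ± 0.17 and -5.31 ± 0.23). The glucose carrier Slc2a3 was 4.19 ± 0.47 higher in IVF.

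Lysosomal genes were lower in 23 of 29, 10 of them at least 8-fold, led by the ceramidase Asah1 (-6.00 ± 0.24) and the protease Ctsd (-4.61 ± 0.19). Ctsh and Gla, a protease and a galactosidase, were 1.64 ± 0.17 and 1.13 ± 0.26 higher. MHC class I and interferon-response genes were lower in 16 of 28, 12 of them at least 8-fold, and higher in 1, Irf1 (1.61 ± 0.22), an interferon-regulated factor. The interferon receptor subunit Ifnar2 was at 3.16, 3.87, 4.18 and 3.36 in Cumulus and at -5.82 to -3.45 in IVF (median -4.51), a difference of -8.10 ± 0.64 (adjusted p = 2.55e-12).

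**Figure D4:**
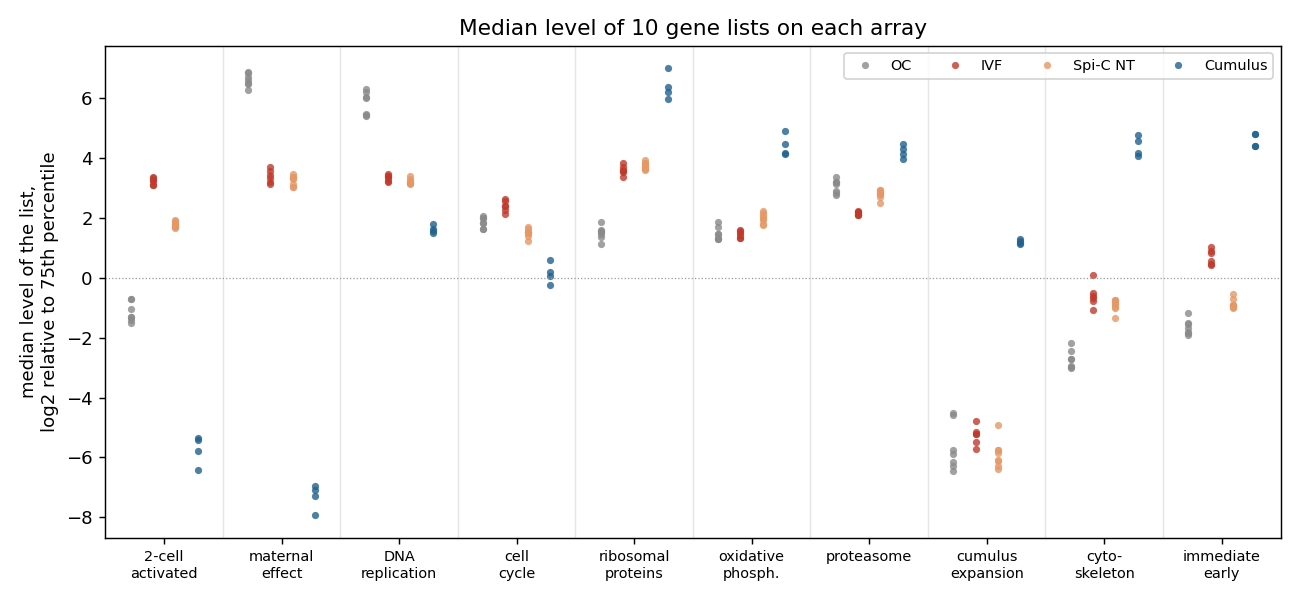
Median log2 level of 10 gene lists on each array (y axis) in OC, IVF, Spi-C NT and Cumulus (x axis), with 1 point per array. For the genes activated at the 2-cell stage, IVF (3.1 to 3.35) lies above OC (-1.51 to -0.70) and Cumulus (-6.43 to -5.35), whereas for ribosomal proteins it lies between OC (1.12 to 1.85) and Cumulus (5.96 to 7.0).

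Imprinted genes, expressed from one parental allele, were higher in 11 of 27 and lower in 8, with 8 and 5 at least 8-fold. Phlda2, Cdkn1c, Grb10 and Mest, which act in fetal and placental growth, were 1450-fold, 67.0-fold, 72.1-fold and 69.9-fold higher, and Nap1l5 was lower (-6.78 ± 0.64). Phlda2 was well above background on 1 and Grb10 on 3 of 4 Cumulus arrays. In OC the means of Phlda2, Cdkn1c, Grb10 and Mest were 3.77, -2.15, 5.62 and 8.79, against 3.26, 1.91, 2.32 and 4.73 in IVF. The list median was -0.144 relative to all genes, and became 0.41 with the mean over all probes of a gene and 0.04 with probes well above background in every array of a group. Xist, the RNA of the inactive X chromosome, was at -3.45, -4.68, -3.40 and -2.81 in Cumulus and at -9.72 to -8.77 in IVF, well above background on no IVF array and at least 11.2-fold lower. X-linked genes as a whole were at least 8-fold higher in 17.9% and at least 8-fold lower in 14.9% of 552, near the background of 16.8 and 12.9%. All 8 genes tested of a Y-linked list, and 10 of the 12 genes tested on the Y chromosome, were at least 8-fold higher in IVF, whose embryos can be of both sexes, than in Cumulus, which comes from females. Eif2s3y, a translation factor, was 0.03 to 1.67 in IVF (median 1.17) and -7.90, -8.67, -7.60 and -5.00 in Cumulus, where 1 of 4 arrays was well above background, and the helicase Ddx3y was at least 12.6-fold higher. None of the 8 was at least 8-fold from Cumulus in Spi-C NT, made from female cumulus nuclei.

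Markers of other cells that a cumulus sample could hold also differed. Immune markers were lower in 9 of 15, 7 of them at least 8-fold, and higher in 2. Their summed level was 2.93 to 3.31 in IVF and 4.82 to 6.85 in Cumulus. A summed level is the log2 of the members' added intensities, so the brightest member can set it. Ms4a1 alone was at 2.61 to 3.08 in IVF, and Lyz2 alone at 4.41 to 6.69 in Cumulus. Lyz2, a macrophage lysozyme, was at 4.41, 4.97, 6.51 and 6.69 in Cumulus and -0.48 to -0.17 in IVF, and Adgre1 and Tyrobp, also of macrophages, were at least 252-fold and at least 177-fold lower. Ms4a1, a B-cell marker, was 7.10 ± 0.73 higher in IVF, with 3 of 4 Cumulus arrays well above background, and at 5.46 in OC. The part of immune cells in the antigen, lysosomal and expansion lists was not tested. Erythroid markers had 3 lower and 1 higher of 7 (summed level -0.961 to -0.189 in IVF and -1.23 to 1.04 in Cumulus). Endothelial, theca and stromal markers had 5 higher and 2 lower of 9 (1.32 to 1.97 and 1.49 to 2.12). Among the higher were Tek (at least 80-fold), Myh11 (5.92 ± 0.25, 3 of 4 Cumulus arrays well above background) and Pecam1 (3.87 ± 0.34). Cdh5, an endothelial cadherin, and Pdgfrb were lower (-5.22 ± 0.79 and -2.72 ± 0.70). Oviduct markers had 3 higher and 2 lower of 9 (3.13 to 3.53 and 1.40 to 2.90). Epcam was 9.13 ± 0.40 higher, with 2 of 4 Cumulus arrays well above background, and alone stood at 2.96 to 3.41 in IVF. Krt7 (at least 2.81-fold) and Foxj1 (2.56 ± 0.64, with overlap between the groups) were also higher. Ovgp1, the oviductal glycoprotein, and Ltf were lower (-3.87 ± 0.44 and -2.48 ± 0.58). Sperm markers had 4 higher and 1 lower of 9 (3.38 to 3.91 and 2.55 to 2.90). Spam1 was at least 34.5-fold higher in IVF and at 0.36 in OC. The protamines Prm1 (1.14 ± 0.38, and -0.07 after normexp) and Prm2 (2.93 ± 0.41) were low in both groups.

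The same Cumulus arrays were set beside Spi-C NT embryos, whose arrays were read with the Cumulus scanner model and software. The comparisons share the 4 Cumulus arrays, so that each is given by its own values. In Spi-C NT minus Cumulus, 5969 probes (16.4%) were at least 8-fold higher and 3709 (10.2%) at least 8-fold lower, and by gene the shares were 14.7 and 12.2%. The gene counts are not fully alike. The 394 genes whose probes disagreed in IVF minus Cumulus were left out of its counts but kept in those of Spi-C NT. Of the lists compared here, this touched the steroidogenic list (3 genes) and the expansion list (1 gene). Maternal genes were at least 8-fold higher in 31 of 35 in both comparisons, genes activated at the 2-cell stage in 17 of 22 for IVF and 16 of 22 for Spi-C NT, and pluripotency regulators in 17 and 16 of 25. The cumulus expansion list was at least 8-fold lower in 24 and 23 of 33, the cytoskeletal list in 24 and 24 of 34, and the ribosomal list in 22 and 20 of 83. Immediate early genes were at least 8-fold lower in 20 and 24 of 34, steroidogenic genes in 16 and 19 of 38, antigen and interferon genes in 12 and 14 of 28, glycolysis genes in 11 and 10 of 27, and lysosomal genes in 10 and 4 of 29. Polycomb genes were at least 8-fold higher in 7 and 4 of 20. The oxidative phosphorylation list was at least 8-fold lower in 33 and 18 of 81, and lineage factors at least 8-fold higher in 13 and 7 of 21. Medians relative to all genes were 8.06 and 6.87 for the 2-cell list, 4.74 and 1.35 for lineage factors, -6.58 and -7.24 for expansion, and -2.71 and -2.14 for oxidative phosphorylation. Sox2, Gata2, Eomes and Cdx2 were at 2.29, 2.31, 0.82 and -0.45 (median) in IVF and at -3.46 ± 0.59, -2.84 ± 2.39, -7.33 ± 0.77 and -6.94 ± 1.53 (mean and SD, n = 8) in Spi-C NT. The difference between IVF and Spi-C NT was not tested here, since scanner, slide and scan day cannot be told apart from the kind of embryo between them.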

How the data were processed

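RNA from pooled embryos, oocytes or cumulus cells was amplified linearly in 2 rounds, labelled with Cy3 and hybridised to Agilent whole mouse genome 4x44K arrays, per the labels and the study's methods. The deposited scanner text files hold a processed intensity per spot, background-subtracted by Agilent Feature Extraction. The labels name version 9.5.3.1 for all arrays, whereas the file headers give 10.5.1.1 for Cumulus and Spi-C NT. The authors also deposited a table of processed log2 values, of which 97.343% lay within 0.05 of the levels used here after centring each probe, and which served as an alternative. Outlier spots were left out, spots of a probe averaged, and log2 intensity minus the array's 75th percentile taken over 41174 probes. Normexp with an offset of 50 on the spot and local background intensities was an alternative.

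Probes with an intensity of at least 10 on any IVF or Cumulus array were tested with limma 3.58.1 in R 4.3.3 (lmFit and eBayes) over 5 groups and 31 arrays, with Benjamini-Hochberg adjustment and a threshold of 0.01. Spi-C NT was fitted with Cumulus alone. RefSeq symbols matched 23374 probes and 16535 genes, and each gene was read by its probe of highest mean level. Genes whose probes were called in opposite directions (394) were counted in neither direction. The script was tested on simulated data. The named genes were the 10 largest differences without overlap in each direction, in each list up to 4 members in its main direction and 2 in the other, and fixed landmarks, of which Zscan4d, Tet3 and Vcan were not analysed here, and some others the rule chose are not reported here. Members, lists and landmarks were chosen with earlier results of these data known. Alternatives covered scaling, background correction, filters, probe choice, test, slide, replicate number and each array left out. The number of arrays limits the precision.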

Additional observations from a re-analysis of the deposited data

Results flagged for a closer look

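Among 360 groups of arrays of named probes, 17 (4.7%) held 1 array far from the others by Dixon's criterion, and chance flags about 1 in 20. On IVF arrays these were Cdkn2b (0.86) and S100a6 (-1.04) on replicate 1, Klf1 (-3.44) and Prm1 (-5.57) on replicate 2, Pecam1 (-1.8) on replicate 3, Egr2 (-3.26), Ell3 (2.16) and Tnp1 (-3.2) on replicate 4, and Dnmt3l (4.62), Nap1l5 (-2.1), Ndufa12 (-1.75) and U2af2 (-1.34) on replicate 5. On Cumulus arrays they were Mbd1 (2.83) on replicate 2, Cdc45 (-3.12), Nr4a1 (7.25) and Vwf (-3.12) on replicate 3, and Tcl1 (-3.76) on replicate 4. The values are log2 levels, and S100a6 on IVF replicate 1 lay above the -4.18 to -3.26 of the other 5 arrays, with a difference from Cumulus of -8.24 with it and -8.68 without it.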

How the results depend on the processing

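The balance of higher and lower calls rested on the scale. After median centring, 4282 probes were at least 8-fold higher and 6292 at least 8-fold lower in IVF, and in Spi-C NT minus Cumulus 8381 were higher, 15294 lower, 3722 at least 8-fold higher and 6220 at least 8-fold lower. After normexp and quantile normalization 2650 were at least 8-fold higher and 2629 at least 8-fold lower, sharing 2521 of 6160 and 2590 of 4156 probes with those reported. The cause was not tested. Leaving out 1 array gave 11742 to 12200 higher, 9182 to 9441 lower, 6072 to 6237 at least 8-fold higher and 4121 to 4185 at least 8-fold lower. Replicate numbers did not pair the arrays (correlations of -0.0444 to 0.0373), and with the replicate number as a block the 4 counts were 12196, 9332, 6171 and 4146. With slide as a random block the correlation within slides was 0.0145. Named probes were checked under the 3 other scalings, with IVF and Cumulus arrays alone, with slide as a block and with each array left out. They were not checked under the other filters, the other test, the authors' values or the replicate block. Across the settings checked, 59 values of named probes lost their call, 8 of them after median centring, and 2 gained one. Of named probes at least 8-fold apart, 82 of 84 higher (not Gjb5 and Gjb6) and 83 of 83 lower kept direction and call in every setting checked. List medians relative to all genes were checked for a change of sign only where unequal numbers of members were at least 8-fold higher and lower. This left out the spliceosome, heat shock, erythroid and oviduct lists. Those that changed sign were H3K9 enzymes (0.01, quantile), histone acetylation enzymes (0.06, quantile, and 0.03, mean over probes) and imprinted genes (0.41, mean over probes, and 0.04, well above background). Probes that changed sign were Dnmt1 (-0.15), Kdm4d (-0.70) and Psmd3 (-0.05) with median centring, Kdm4d without 1 array (-0.07 to 0.37, lowest without Cumulus replicate 1) and Prm1 (-0.07) after normexp. Signal over background limited the embryo side, where 36.5% of the probes at least 8-fold higher had only a bound in Cumulus.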

Other observations

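Gene families and chromosomal neighbours showed further structure, which was looked up after the values were seen and is given without a test. Among families with at least 12 genes tested, the PRAME-like genes (Pramel) had 10 of 12 at least 8-fold higher in IVF and the NLR family genes of oocytes and immunity (Nlrp) 10 of 13, against a background of 16.8%. The F-box genes Fbxw had 10 of 17 and the testis-expressed Tex genes 10 of 21 at least 8-fold higher. Runs of neighbouring genes all at least 8-fold higher were found on chromosome 9 (10 genes, Fbxw members and Spink8, median difference 10.2, range 3.55 to 13.3), on chromosome 12 (6 genes, Tcl1 and Tcl1b1 to Tcl1b5, 8.66 to 11.6), on chromosome 4 (6 genes, Oog3, Oog4 and Pramel members, 5.95 to 16.7) and on chromosome 7 (5 Obox genes, 7.43 to 15.9). Close copies can share a probe, so that members of a run are not independent measurements.

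On the cumulus side, 6 neighbours on chromosome 5, Cxcl1, Cxcl2, Epgn, Ereg, Areg and Btc, which encode 2 chemokines and 4 ligands of the epidermal growth factor receptor, were all at least 8-fold lower in IVF, with a median difference of -8.47 (range -11.4 to -4.32). The ligands Areg, Ereg and Btc are known to relay the ovulatory surge to cumulus cells. On chromosome 3 the steroid dehydrogenase genes Hsd3b1 and Hsd3b6 lay in a run of 4 with Hao2 and Wars2, with differences from -14.1 to -4.41.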
